A study of Sus scrofa domesticus with 16 samples.

Results

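Genes of the circadian clock were followed in the adrenal glands of 16 domestic pigs (Sus scrofa domesticus), with CRY2 as the gene of interest. Probe sets were taken by gene symbol from the platform annotation for 10 clock genes, CRY2, CRY1, PER1, PER2, PER3, NR1D1, NR1D2, ARNTL, CLOCK and DBP. A probe set is a group of short probes on the array that reads 1 transcript. Of the 10 genes, 4 had a probe set with that symbol, out of 6765 named genes in all: CRY2, ARNTL and DBP had 1 each and PER1 had 2, so that 5 of 23999 probe sets were followed. The other 6 genes were not analysed here. CRY2 was chosen by its own log2 signal, which differed between the stress groups, so that difference is described and not tested.

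Total RNA came from 8 animals labelled high stress, out of a mixing treatment of high aggressiveness, and 8 labelled low stress, out of one of low aggressiveness. Unfamiliar pigs had been put together in both treatments, and the submitters picked the groups to differ in fighting and in plasma cortisol. No sampling time, age or sex is among the labels used here. The values are deposited linear signals, taken here to log2, so a difference of 1 is a doubling.

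The clock of mammalian cells is a feedback loop of transcription. The proteins of CLOCK and ARNTL (also called BMAL1) switch on genes that carry E-box sequences, among them the PER and CRY genes, whose proteins return to the nucleus and repress that pair. DBP is an output of the same loop, a transcription factor of the PAR bZIP family whose gene is driven by CLOCK and ARNTL. In mice the adrenal clock is known to shape the daily rhythm of glucocorticoid release, PER1 is induced directly by glucocorticoids, and CRY proteins bind the glucocorticoid receptor.

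The arrays fell into 2 sets of 8, which the labels do not mention, by the signal of the bacterial labelling control dap. That mean signal was 516 to 721 in the low-spike set and 3261 to 4826 in the high-spike set, each with 4 high and 4 low stress animals. The animal numbers in the labels begin with 3, 4, 5 or 8, and each first digit within each set held 1 high and 1 low stress animal. The labels do not say what the digit stands for. Between the sets 5767 of 14399 probe sets (40.1%) passed limma at an adjusted p under 0.05, so results are also given within the sets. The glands carried their defining markers: the 7 measured genes of 8 listed for the cortex, such as STAR and CYP11A1, and the 3 measured of 7 listed for chromaffin cells, such as PNMT, were all above the filter on low signal (log2 6.15).

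CRY2, a repressor of the clock loop, was read by 1 probe set. Its log2 signal had a lowest value of 6.32, a median of 6.46 and a highest value of 7.12 in high stress glands, against 6.85, 7.18 and 7.95 in low stress glands. On the linear scale the medians were 88.0 in high stress and 145 in low stress. Of the high stress animals 6 lay below all low stress animals, and the other 2, replicates 4 and 7, lay within the low stress range. The group means were 6.59 ± 0.30 in high stress glands and 7.29 ± 0.38 in low stress glands (SD, n = 8). The log2 difference was -0.69 (SE 0.17), so the high stress level was 0.619 of the low stress level. A difference at least as far below 0 was found in 47 of the 14399 probe sets (0.326%). All 8 high stress animals lay below the low stress mean, as they did for 0.854% of probe sets. These shares are given as background only, since the same contrast chose the gene.

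**Figure D1:**
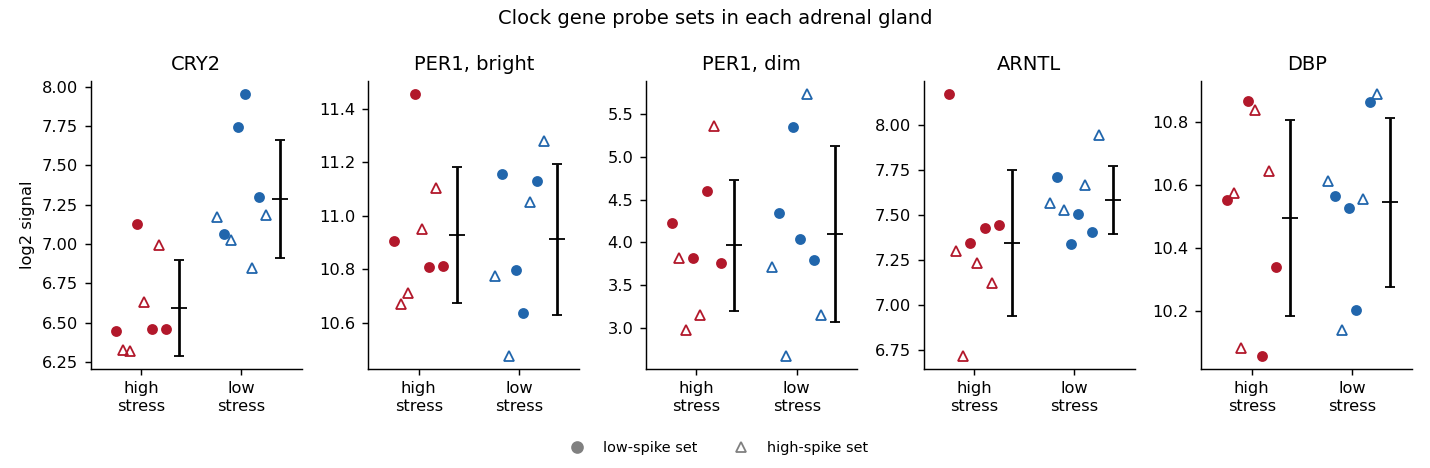
Log2 signal of the 5 clock probe sets in each gland, with high stress left of low stress and a separate axis for each probe set. Points are animals (filled circles, low-spike set; open triangles, high-spike set), and bars show the mean ± SD of 8 animals. For CRY2 6 of 8 high stress animals lie below every low stress animal; for the other probe sets the groups overlap more widely.

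The CRY2 difference had the same direction in every pair formed by 1 set and 1 first digit. In these 8 pairs high stress minus low stress ranged from -1.496 to -0.19, with a median of -0.66 and an SD of 0.41. The widest gap was between high stress replicate 6 at 6.46 and low stress replicate 5 at 7.95. The narrowest were in the high-spike set, with 6.99 in the high stress and 7.18 in the low stress animal of digit 8, and 6.63 in the high stress and 6.85 in the low stress animal of digit 5. Signals lower in all 8 pairs were found in 136 of the 14399 probe sets (0.945%). That share too is background only. The same contrast chose CRY2, so a like direction in the pairs was largely fixed by the choice.

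The size of the difference was not the same in the 2 sets. In the low-spike set CRY2 averaged 6.62 ± 0.33 in high stress animals (SD) and 7.52 ± 0.41 in low stress animals, 4 of each, a difference of -0.89. In the high-spike set it averaged 6.57 ± 0.32 in high stress animals (SD) and 7.06 ± 0.16 in low stress animals, 4 of each, a difference of -0.49. The high stress means were thus close, and the low stress means lay further apart. The difference between the sets was 0.40 (SE 0.30) and did not pass limma's interaction test (95% confidence interval -0.24 to 1.048), which 0 of 14399 probe sets passed (421 at an unadjusted p under 0.05). Over both stress groups CRY2 averaged 6.81 ± 0.35 in the high-spike and 7.07 ± 0.59 in the low-spike set (SD, n = 8 each). That difference of -0.26 did not pass limma with stress as a term (95% confidence interval -0.59 to 0.07, adjusted p = 0.194).

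**Figure D2:**
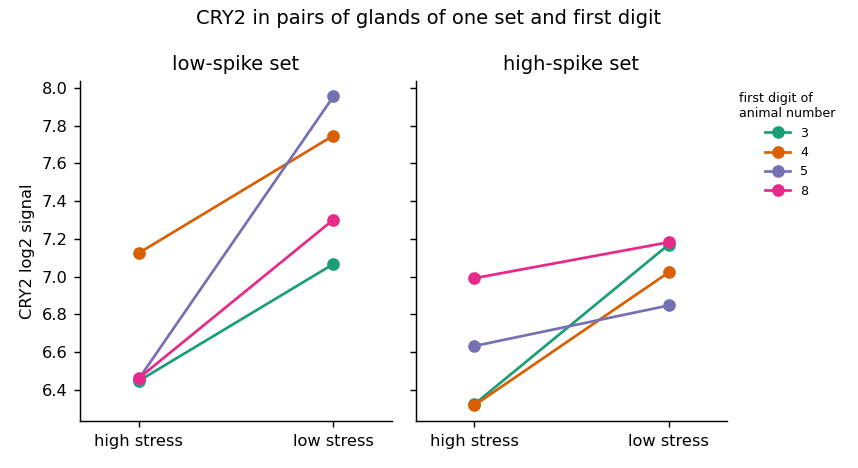
CRY2 log2 signal in pairs of glands that share a spike-in set and a first digit in their animal number, with high stress on the left. Each line joins 1 high and 1 low stress animal. All 8 lines run upward to the low stress animal, with high minus low stress between -1.496 and -0.19. CRY2 was chosen for its stress difference, which largely fixes this direction.

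Some measures of the arrays and of other cell types also stood differently in the groups. The median log2 signal of an array was 7.01 ± 0.11 in high stress glands and 7.09 ± 0.08 in low stress glands. The log2 ratio of 3' to 5' GAPDH signal, a sign of RNA length, was 0.37 ± 0.08 in high stress glands and 0.45 ± 0.14 in low stress glands (SD, n = 8). The same ratio for actin was 3.15 ± 0.62 in high stress glands and 3.38 ± 0.60 in low stress glands (SD, n = 8). Within groups and sets, the r with CRY2 was negative for the array median and for GAPDH, with r = -0.57 for the array median (permutation p = 0.0648; rho = -0.58, permutation p = 0.0539) and r = -0.58 for GAPDH (permutation p = 0.0260; rho = -0.61, permutation p = 0.0129), over 16 animals. Neither r passed adjustment over 56 such relations (adjusted p = 0.698 for both), nor did either rho (adjusted p = 0.787 and 0.725). Without the 2 most distant animals r was -0.72 for the array median and -0.70 for GAPDH. The actin ratio had the other sign, with r = 0.11 (permutation p = 0.781, adjusted p = 0.924) and rho = 0.19 (permutation p = 0.534, adjusted p = 0.904). With the GAPDH ratio as a covariate the CRY2 difference was -0.86 (SE 0.14), and with each array centred on its median it was -0.62.

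By the mean log2 signal of their genes, adipocyte markers were lower in high stress glands (difference -0.78) and smooth muscle markers higher (0.30). The adipocyte genes differed unevenly, by -1.95 (ADIPOQ), -0.32 (LEP) and -0.07 (FABP4). The smooth muscle genes ran from 0.04 (CNN1) and 0.08 (DES) to 0.57 (TPM2). The log2 of the summed signal of the 3 measured adipocyte markers of 5 ranged from 7.19 to 8.73 in high stress and from 7.68 to 8.94 in low stress. Of these markers ADIPOQ, the adipokine adiponectin, lay under the filter value at 0.20 to 5.65 in high stress and 4.07 to 6.07 in low stress. The log2 of the summed signal of the 5 measured smooth muscle markers of 6 ranged from 12.78 to 14.22 in high stress and from 11.84 to 14.21 in low stress. Fewer cells of a type and less RNA per cell cannot be told apart in whole glands. The r with CRY2 within groups and sets was taken with the mean log2 signal of a list, not with its summed signal. It was -0.31 for the adipocyte list (permutation p = 0.306), with rho = -0.31 (permutation p = 0.270). For the smooth muscle list it was -0.06 (permutation p = 0.828), with rho = -0.05 (permutation p = 0.848). The chromaffin list had r = 0.53 with CRY2 (permutation p = 0.103) and rho = 0.53 (permutation p = 0.0802). The cortex list had r = 0.42 (permutation p = 0.0552) and rho = 0.47 (permutation p = 0.0959). Neither list passed adjustment over 56 relations (adjusted p = 0.698 for r and 0.787 for rho). Without the 2 most distant animals r was 0.28 for chromaffin and 0.57 for cortex. Their stress differences were 0.02 and 0.01. The part of cell types in the CRY2 difference was not tested.

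The other measured clock genes did not pass the stress comparison. Of their probe sets 3 were tested and 0 passed limma at an adjusted p under 0.05, and the count over all 14399 was also 0 (0%). At an unadjusted p under 0.05 there were 460 of 14399 (3.19%; 1.27% higher and 1.92% lower in high stress) and 0 of the 3. With the spike-in set as a block 1 of 14399 passed (0.00694%), and again 0 of the 3.

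PER1, a repressor like CRY2, had log2 signals of 10.67, 10.86 and 11.45 (lowest, median and highest) in high stress glands, against 10.48, 10.92 and 11.28 in low stress glands, in its brighter probe set. The groups overlapped almost fully, with 7 of 8 high stress animals inside the low stress range. The log2 difference was 0.01 (95% confidence interval -0.27 to 0.30, adjusted p = 0.999 with limma), and its sign turned under quantile normalization. The dimmer PER1 probe set lay under the filter at a mean of 4.03, so it carries little information. Its means were 3.97 ± 0.77 in high stress glands and 4.10 ± 1.03 in low stress glands (SD, n = 8).

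ARNTL, the activator of the loop, had log2 signals of 6.72, 7.32 and 8.17 (lowest, median and highest) in high stress glands, against 7.34, 7.55 and 7.95 in low stress glands. Of the high stress animals 4 lay below all low stress animals and replicate 1 lay above them all. The log2 difference was -0.24 (95% confidence interval -0.57 to 0.09, adjusted p = 0.999 with limma). The 4 animals below were all in the high-spike set, with 7.09 ± 0.26 in high stress glands and 7.68 ± 0.19 in low stress glands (SD, n = 4), a difference of -0.59. In the low-spike set the means were 7.60 ± 0.39 in high stress glands and 7.49 ± 0.16 in low stress glands (SD, n = 4), a difference of 0.11. The difference between the sets, -0.69 (SE 0.26), did not pass limma's interaction test over all probe sets (unadjusted p = 0.0172, adjusted p = 0.9996). An unadjusted p under 0.05 was found for 2.92% of probe sets in that test.

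DBP, the output factor, had log2 signals of 10.06, 10.56 and 10.87 (lowest, median and highest) in high stress glands, against 10.14, 10.56 and 10.89 in low stress glands. The ranges nearly coincided, although high stress replicates 3 and 6 lay just below all low stress animals. The log2 difference was -0.05 (95% confidence interval -0.36 to 0.26, adjusted p = 0.999 with limma), and its sign turned when arrays were centred on their medians.

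None of the 4 genes passed the comparison of the spike-in sets (0 of 4, against 40.1% of all probe sets; adjusted p 0.194 to 0.829 with limma). Among animals of a group their signals had spreads that were not extreme beside those of probe sets of like signal. The SD within groups was 0.34 for CRY2, which exceeds that of 24.4% of the 1000 tested probe sets nearest in signal. It was 0.32 for ARNTL (30.1%), 0.29 for DBP (60.7%) and 0.27 for PER1 (55.9%).

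PER1 and DBP moved together from animal to animal, and no relation of CRY2 to either was detectable. Pearson's r was taken between deviations from the mean of the stress group within the set, which leave the stress difference out. Over 16 animals PER1 and DBP had r = 0.80 (permutation p = 0.00120, adjusted p = 0.00720 over 6 pairs of genes) and rho = 0.80 (permutation p = 0.00159, adjusted p = 0.00954). DBP held rank 23 of 14398 probe sets by r with PER1, and PER1 held rank 6 by r with DBP. Without the 2 animals farthest from the median of PER1, r was 0.71. Animals high in both were high stress replicate 4, at 11.45 for PER1 and 10.87 for DBP, and low stress replicate 8, at 11.28 and 10.89. Low stress replicate 3 was low in both, at 10.48 and 10.14. Within the low-spike set r was 0.85 (exact permutation p = 0.00521, adjusted p = 0.0312; rho = 0.90, exact permutation p = 0.0139, adjusted p = 0.0833), and within the high-spike set it was 0.76 (exact permutation p = 0.0434, adjusted p = 0.130; rho = 0.71, exact permutation p = 0.0903, adjusted p = 0.135), with 8 animals each.

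The other 5 pairs had r from -0.19 to 0.39, and none passed (adjusted permutation p = 0.572 for each). CRY2 had r = 0.19 with PER1 (rho = 0.16), -0.19 with ARNTL (rho = -0.13) and 0.23 with DBP (rho = 0.29), so these 16 animals showed no detectable relation of CRY2 to the other clock genes. The r of CRY2 with PER1 and with DBP moved with single animals. They were -0.13 and -0.00 without high stress replicate 4, and 0.42 and 0.48 without low stress replicate 5. Within the high-spike set they were 0.48 and 0.49, and rho was 0.67 and 0.79. Neither rho passed (exact permutation p = 0.0781 and 0.0347, adjusted p = 0.135 for both). Within the low-spike set r was 0.004 and 0.06, and rho was -0.24 and -0.10. ARNTL and DBP had r = 0.39 over all animals, 0.86 within the high-spike set (exact permutation p = 0.0208, adjusted p = 0.125) and 0.02 within the low-spike set (exact permutation p = 0.955, adjusted p = 0.998).

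**Figure D3:**
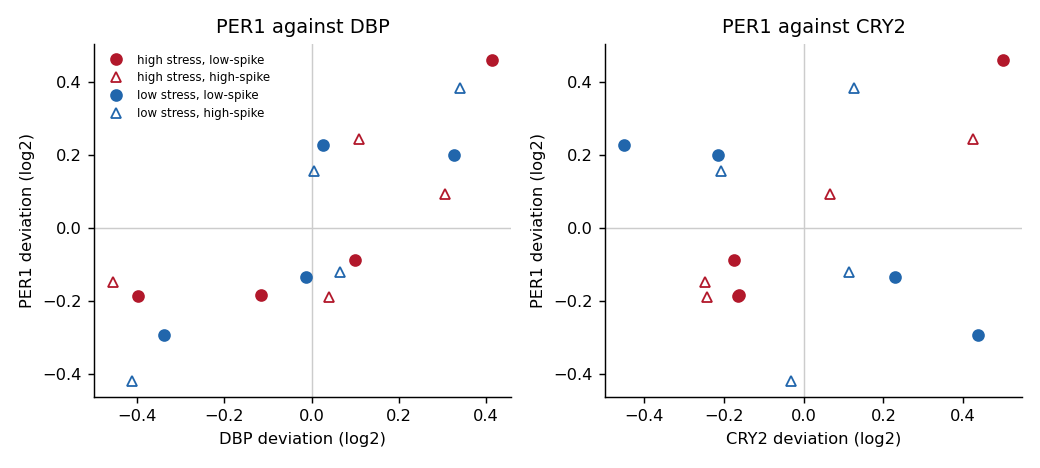
Deviation of PER1 (y axis, log2) from the mean of its stress group and spike-in set, against that of DBP (left) and of CRY2 (right). Each point is an animal, coloured by stress group and shaped by set; PER1 follows DBP (r = 0.80) and shows no such relation to CRY2 (r = 0.19).

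Y-linked signal also differed among the animals. EIF1AY, a Y-linked gene, was high in 4 animals of each stress group and low in the others. DBP averaged 10.36 ± 0.30 in the 8 animals with high EIF1AY signal and 10.68 ± 0.15 in the 8 with low signal (SD). That difference of -0.33 (SE 0.12) did not pass limma (adjusted p = 0.999), which 9 of 14399 probe sets (0.0625%) did. With the Y-linked signal removed as well, the r of PER1 and DBP was 0.76 and the call was lost (permutation p = 0.00856, adjusted p = 0.0514; rho = 0.67, permutation p = 0.0112, adjusted p = 0.0675). CRY2 averaged 6.85 ± 0.57 in the animals with high and 7.03 ± 0.41 in those with low EIF1AY signal (SD, n = 8 each), and its stress difference with the EIF1AY signal as a covariate was -0.68 (SE 0.17). Split by that signal, the stress difference of CRY2 was -0.92 where EIF1AY was high and -0.47 where it was low, with 4 animals of each stress group.

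The named genes whose signal followed CRY2 most closely were not clock genes, of which few were measured. Only probe sets with 1 gene symbol could be named (7272 of 14399 tested), so some with a more extreme r were passed over. Likeness was the r with CRY2 of deviations within stress group and set over 16 animals, among 14398 probe sets, whose median r was -0.05. The 5 named genes with the highest r were LOC100524873 at 0.90, EMC9 at 0.86, a subunit of a membrane protein complex of the endoplasmic reticulum, MEA1 at 0.85, TRAPPC3 at 0.85, of a complex that tethers transport vesicles, and HSPA8 at 0.84, the constitutive heat shock cognate chaperone. The 5 with the lowest were the RNA-binding protein QKI at -0.91, ALG2 at -0.90, a mannosyltransferase of glycan synthesis, the prolyl isomerase FKBP14 at -0.90, the autophagy adaptor TAX1BP1 at -0.89 and TTC14 at -0.87. Within the sets r lay between 0.64 and 0.98 at the high end and between -0.97 and -0.77 at the low end. The genes were picked by r over these same 16 animals, so a like sign within each set was largely fixed by the choice. All these points share arrays, so array-wide measures enter every r. The stress differences of these 10 genes ran from -0.25 (TAX1BP1) to 0.14 (HSPA8), and none passed limma (adjusted p = 0.999 for each).

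**Figure D4:**
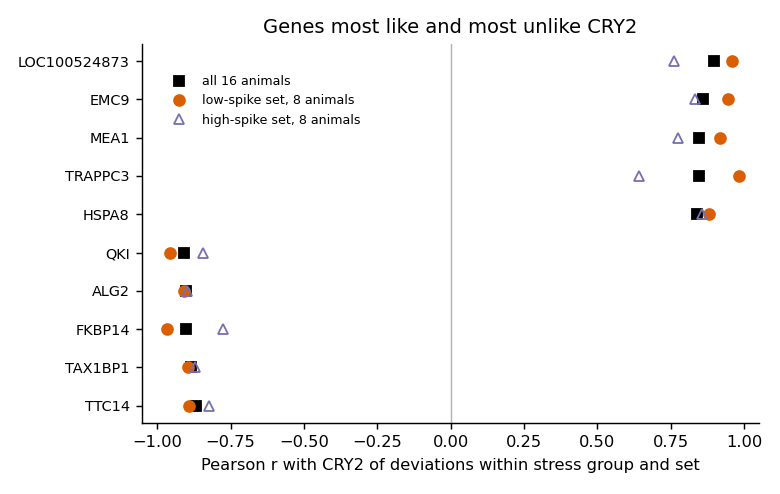
Pearson r with CRY2 (x axis) of the 5 named genes with the highest and the 5 with the lowest r, from deviations within stress group and spike-in set. Squares are all 16 animals, circles the 8 of the low-spike set and triangles the 8 of the high-spike set. The genes were picked by r over all 16 animals, which largely fixes the sign within each set.

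Further genes of the clock did not pass the stress comparison either. Of 12 other members of the loop 3 were measured and tested, with 2 higher and 1 lower in value and 0 past the threshold in each direction. Their median log2 difference was 0.10, against -0.03 over all probe sets tested. RORA, a nuclear receptor that activates ARNTL, had 6.04 ± 0.45 in high stress glands and 6.47 ± 0.52 in low stress glands (SD, n = 8), a difference of -0.42 (SE 0.23), with a high stress mean under the filter value. NFIL3, a repressor that opposes DBP, had 8.22 ± 0.62 in high stress and 7.95 ± 0.84 in low stress, a difference of 0.27 (SE 0.34). BHLHE40, a repressor of CLOCK and ARNTL also known as DEC1, had 8.21 ± 0.48 in high stress and 8.11 ± 0.77 in low stress. That was a difference of 0.10 (SE 0.29), in the brighter of its 2 probe sets. The dimmer one, under the filter, had a difference of 0.50. The NFIL3 difference and that of the brighter BHLHE40 probe set had the other sign within the low-spike set.

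Among 27 genes of clock protein turnover, kinases and cofactors, 14 were measured and tested, 7 with higher and 7 with lower values, and 0 passed in each direction. Their median difference was -0.01, within a range of -0.13 to 0.21. DDB1, an adaptor of the ubiquitin ligase CRL4, had 11.05 ± 0.12 in high stress glands and 10.83 ± 0.23 in low stress glands (SD, n = 8), a difference of 0.21 (SE 0.11). HDAC3, a histone deacetylase that acts with NR1D1, had a difference of 0.14 (SE 0.09), and its corepressor NCOR1 had -0.12 (SE 0.10).

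The glucocorticoid receptor and genes that glucocorticoids induce gave a like picture. Of 12 genes 9 were measured and tested, 4 with higher and 5 with lower values, 0 past the threshold in each direction, and a median difference of -0.01. NR3C1, the glucocorticoid receptor, had 6.27 ± 0.57 in high stress glands and 6.74 ± 0.39 in low stress glands (SD, n = 8), a difference of -0.47 (SE 0.23) in the only one of its 4 probe sets that passed the filter. The 4 probe sets disagreed, with differences from -0.77 to 0.09. FKBP5, a chaperone of that receptor, had -0.33 (SE 0.18), with 7 of 8 pairs lower, and CEBPD, an acute phase transcription factor, had 0.24 (SE 0.14). The 3 probe sets of CEBPD also disagreed, with differences from -0.08 to 0.24. The adjusted p was 0.999 for every gene of the 3 lists with limma.

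**Figure D5:**
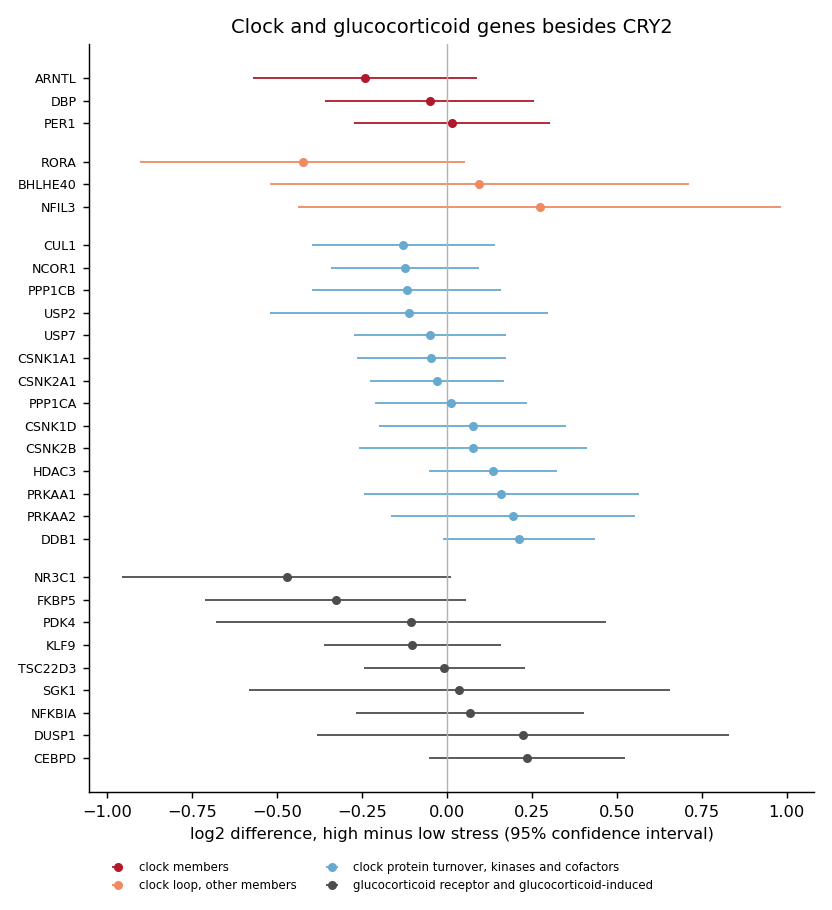
Log2 difference in signal, high minus low stress (x axis), with its 95% confidence interval from limma, for the clock genes besides CRY2 and the genes of 3 further lists, 1 probe set per gene. All intervals cross 0.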

How the data were processed

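Adrenal RNA of 16 pigs was measured, with 1 Affymetrix GeneChip Porcine Genome Array per animal. The deposited intensity values are linear signals made by the authors with Affymetrix Expression Console 1.1.1 and MAS5, per the submitters' processing notes. Those notes name no MAS5 version. Control probe sets (124) were set aside, which left 23999. Signals were taken to log2, and probe sets under the 40th percentile of mean log2 signal (6.15) were left out, which kept 14399. The platform annotation gave 1 gene symbol for 10069 probe sets, more than 1 for 198 and no symbol for 13732. The reference gene table, used for names only, held 9961 of the 10069 and changed 0 symbols.

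The stress comparison was a two-sided limma fit (lmFit, eBayes; version 3.58.1 under R 4.3.3), with Benjamini-Hochberg adjustment over all 14399 probe sets and a threshold of 0.05. The same tool compared the spike-in sets, with stress as a term. Correlations used deviations from the mean of the stress group within the spike-in set, with a two-sided permutation test of 100000 rearrangements within the 4 combinations of group and set (exact, with 576 rearrangements, within a set). P-values were adjusted over 6 pairs of genes. One probe set per gene, the brightest, stood for a gene in lists and correlations. The tests were also run on simulated data. Figures were drawn with matplotlib 3.10.9.

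The members and gene lists were chosen with earlier results of these data known, and CRY2 was chosen for its stress difference. Genes are named by rule: all members, the 2 to 4 genes with the smallest p in each list (3 were taken), and the 5 most like and 5 most unlike CRY2. Fits with both blocks combined or a GAPDH covariate, the tests by Y-linked signal and of the difference between sets, and the correlations without 1 animal or without the Y-linked signal were added after the data were seen. The number of arrays limits the precision.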

Additional observations from a re-analysis of the deposited data

Results flagged for a closer look

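In 24 probe sets looked at, each in 2 groups of 8 animals, 2 values lay far from the others of their group by Dixon's ratio at its 95% critical value; chance marks about 1 in 20 groups. For NFIL3, high stress replicate 7 had a log2 signal of 9.58, above the next animal at 8.42 and the lowest at 7.56. For TTC14, high stress replicate 4 had 8.21, below the next animal at 9.17 and the highest at 9.93. No such value was found for CRY2, PER1, ARNTL or DBP.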

How the results depend on the processing

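The labels give no replicate numbers, but each combination of spike-in set and first digit of the animal number held 1 high and 1 low stress animal. With these 8 pairs as a block the CRY2 difference was -0.69 (SE 0.13), and limma called 0 of 14399 probe sets (1321 at an unadjusted p under 0.05, against 460 without the block). Over the fits of the stress comparison the CRY2 difference lay between -0.89 and -0.49, the extremes being the 2 spike-in sets. It lay between -0.77 and -0.60 when 1 animal was left out, and the filter at the 60th percentile left CRY2 out. Split by EIF1AY signal, the difference of means was -0.92 in animals with high signal and -0.47 in those with low signal. Blocking on the set let 1 of all probe sets pass, against 0 otherwise, and it was none of the clock probe sets; 0 of the clock probe sets besides CRY2 passed in any setting. The number of pairs of clock genes that passed was 1, but 0 within the high-spike set, with the Y-linked signal removed, and without the 2 animals farthest from the CRY2 median. There PER1 and DBP had r = 0.76 (adjusted p = 0.130), 0.76 (0.0514) and 0.70 (0.0555); without 1 animal r was 0.75 to 0.84.

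Signs that turned were all of values that had not passed. PER1's difference was -0.0025 with quantile normalization, -0.0487 with array weights, -0.0361 within the high-spike set and -0.0608 to 0.0668 without 1 animal. DBP's was 0.0228 with median centring and -0.11 to 0.0125 without 1 animal, and its set difference was -0.0875 with median centring. ARNTL's was 0.11 within the low-spike set, NFIL3's -0.34, and BHLHE40's -0.21; BHLHE40's was also -0.0165 with array weights and -0.0694 to 0.26 without 1 animal. Within the low-spike set r was -0.11 for PER1 and ARNTL, and within the high-spike set 0.27 for CRY2 and ARNTL. Without 1 animal r was -0.13 to 0.42 for CRY2 and PER1 and -0.00178 to 0.48 for CRY2 and DBP. The cause was not tested. Signals near the filter, such as those of RORA and NR3C1, are measured less precisely. CRY2 in high stress glands also lay near it, with a lowest value of 6.32 and a median of 6.46. With a constant of 23.5 added to each linear signal before log2, the CRY2 difference was -0.58 (SE 0.14).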
